A study of Mus musculus with 20 samples.

Results

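Overexpression of Pklr in mouse liver was compared with a GFP control vector over all transcripts that passed a filter on low counts. The comparison takes 10 of the 20 livers of the series, namely the 5 labelled PKLR and the 5 labelled GFP, which are the columns of 1 deposited count table. All mice were male C57BL/6J and were injected by vein at 8 weeks of age with an AAV8 vector, a virus that carries genes into liver cells. The vector held either the Pklr coding sequence (PKLR) or the gene of green fluorescent protein (GFP), and every mouse of both groups then ate a diet labelled HF/HS until 25 weeks of age. The Pklr vector used the promoter of the thyroxine binding globulin gene, which drives expression in hepatocytes rather than in the other liver cells, and no source used here names the promoter of the GFP vector. Both groups carry the virus and an added coding sequence. The livers keep their own Pklr gene. Livers are named by group and replicate number, as GFP 1 to GFP 5 and PKLR 1 to PKLR 5, and values given for 5 livers follow that order.

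Pklr encodes the pyruvate kinase of liver and red cells, which makes pyruvate and ATP in the last step of glycolysis. In hepatocytes its transcription is raised by glucose through ChREBP (the product of Mlxipl) and the enzyme is switched off by glucagon. Pyruvate enters mitochondria, and the citrate formed from it can be exported and turned into acetyl-CoA, the building block of fatty acids and cholesterol. Genes of both of those pathways are induced by the SREBP transcription factors. Hepatocytes also differ by their place in the lobule: those around the central vein make glutamine and hold much of the P450 enzymes, and those around the portal vein make urea and glucose.

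Library totals ran from 30691690 to 37434583 counts. Hepatocyte markers (Alb, Ttr, Hnf4a and 9 others) summed to values from 83820 to 117900 CPM in GFP livers and from 73930 to 115000 CPM in PKLR livers, and no member of that list was called. In whole-liver RNA fewer cells of a type and less RNA per cell cannot be told apart. GFP 1 stood apart from the other GFP livers: 159 genes were more than 2-fold above all other 9 livers and 46 more than 2-fold below them, against 0 to 10 above and 7 to 54 below in any other liver. Its mean correlation with the other GFP livers was 0.975, the lowest of the 10, and the sample weight that limma estimated for it was 0.377 against 0.714 to 2.01 for the others. Results are therefore given with and without it.

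A gene is called where the adjusted p of edgeR's quasi-likelihood test, corrected by the Benjamini-Hochberg rule over all genes tested, is under 0.05. Levels are counts per 1000000 (CPM) scaled by the TMM method, and adjusted p-values below are edgeR's. With 10 livers 322 of 15842 genes were called (2.03% of those tested), of which 188 were higher with PKLR (1.19%) and 134 lower (0.846%). The 5 PKLR livers did not overlap with the 5 GFP livers in 295 of the called genes, whereas 5.03% of all genes tested did not overlap. Without GFP 1, 176 of 15940 genes were called (1.1%), 98 higher (0.615%) and 78 lower (0.489%). The 161 genes called in both fits are 50% of the longer list and 91.5% of the shorter one, and all 161 kept their direction. Of the 161 genes that lost the call without GFP 1, all kept their direction, and their adjusted p was at a median of 0.071 with 154 under 0.1. Leaving out GFP 1 was not the largest such change: the counts ran from 128 without GFP 4 and 139 without PKLR 3 to 469 without GFP 5. In all, 94 genes (45 higher, 49 lower) were called in each of the 10 fits that left out 1 liver.

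**Figure D1:**
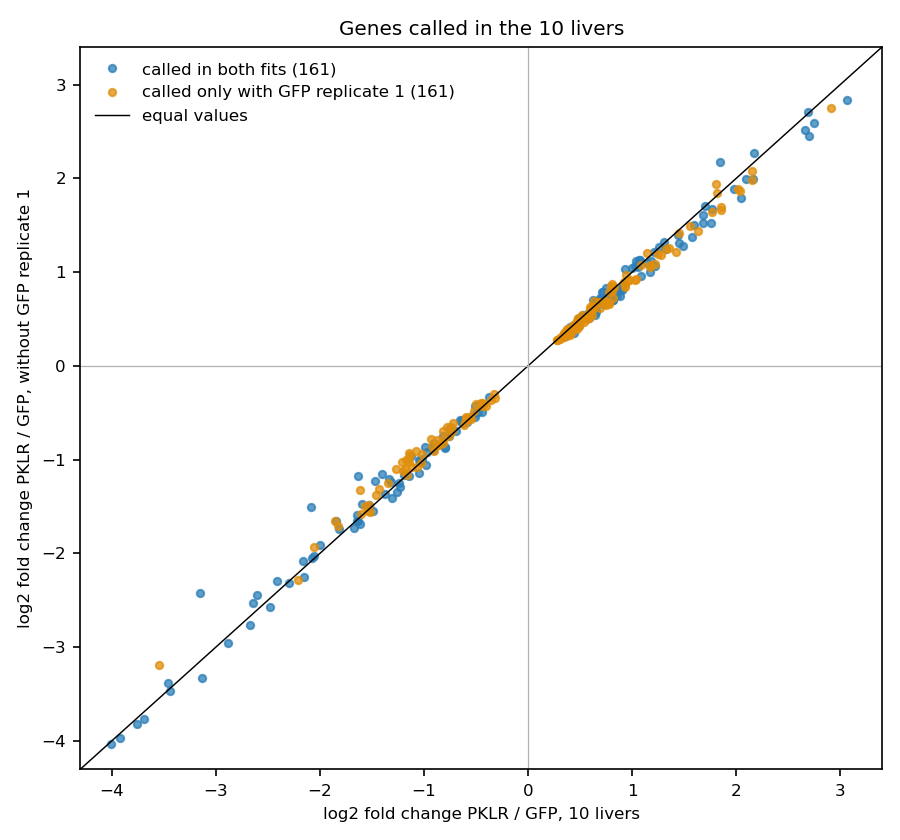
Log2 fold change of PKLR over GFP for the 322 called genes with 10 livers (horizontal axis) and without GFP replicate 1 (vertical axis); blue points are the 161 genes called in both fits and orange points the 161 called only with that liver. Every point has the same sign on both axes, and the line marks equal values.

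Pklr (ENSMUSG00000041237; GRCm38 chromosome 3, 89136142 to 89146784) was at 66.7, 106, 139.6, 148 and 148 CPM in the GFP livers and at 801, 869, 945, 389 and 854 CPM in the PKLR livers. GFP 1 was the lowest of all and PKLR 4 was the lowest of its group, at under 0.5 of the other PKLR livers, but the groups did not overlap. The log2 fold change was 2.67 (SE 0.28, adjusted p = 0.0023) and 2.51 without GFP 1 (adjusted p = 0.00308). Reads from the vector's Pklr and from the mouse's own gene cannot be told apart in these counts. Pkm, the pyruvate kinase of most other tissues, was at 18.1 ± 6.67 CPM with GFP and 12.1 ± 2.15 CPM with PKLR (SD, n = 5 livers per group; adjusted p = 0.218). Hcn3, an ion channel gene on the opposite strand whose 3' end overlaps that of Pklr, was called too (log2 fold change 1.85, adjusted p = 0.0358). Its counts are uncertain, since the genes share bases and no source used here names the strand setting of the counting. Hcn3 kept its call only in the fits without GFP 4 and 5 and PKLR 5 (adjusted p up to 0.0712 in the rest).

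The pathways of sugar use differed in how many genes were called. Of the 19 other glycolytic genes tested none was called, and their median log2 fold change was 0.001 beside 0.006 over all genes (0.009 without GFP 1). All 10 genes of the pentose phosphate route and NADPH supply had higher means with PKLR (median 0.28), and 3 rose: malic enzyme Me1, which makes NADPH for fatty acid synthesis (log2 fold change 1.09), 6-phosphogluconate dehydrogenase Pgd (0.82) and transketolase Tkt (0.55). Their adjusted p-values were 0.0338, 0.0362 and 0.0338, and without GFP 1 they were 0.0776, 0.0694 and 0.0689, so that none of the 3 was called there although the list median was 0.27. The score of this list, the mean log2 CPM of its tested members less the mean of the 5 GFP livers, was -0.03, -0.02, 0.02, 0.03 and -0.002 in the GFP livers and 0.45, 0.27, 0.58, 0.28 and 0.29 in the PKLR livers. The GFP livers lay close together and all PKLR livers lay above them. Me1 kept its call only in the fits without GFP 5 and PKLR 2, 4 and 5 (adjusted p up to 0.0776 in the rest), Pgd kept its call only in the fits without GFP 5 and PKLR 2, 3, 4 and 5 (adjusted p up to 0.0888 in the rest), and Tkt kept its call only in the fits without GFP 5 and PKLR 2 and 5 (adjusted p up to 0.0757 in the rest).

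Genes of fructose use and ChREBP response had 3 of 13 members called, all higher (list median 0.37, 0.24 without GFP 1). Ketohexokinase Khk, which starts fructose breakdown, had a log2 fold change of 0.78 (adjusted p = 0.0427; 0.0669 without GFP 1), and the triokinase gene Tkfc one of 0.86 (adjusted p = 0.0227; 0.0365 without GFP 1). Khk kept its call only in the fit without GFP 5 (adjusted p up to 0.0988 in the rest), and Tkfc lost its call without any 1 of GFP 2 and PKLR 3 (adjusted p up to 0.053). Mlxipl itself was at 242 ± 78.8 CPM with GFP and 312 ± 111 CPM with PKLR (SD, n = 5 livers per group; adjusted p = 0.481), with PKLR 2 at 507 CPM far above the rest of its group. Pnpla3, a lipid droplet protein that both ChREBP and SREBP-1c induce, kept its call whichever liver was left out. It was at 0.578, 1.13, 0.746, 1.17 and 1.56 CPM in the GFP livers and at 9.16, 8.73, 7.97, 6.08 and 2.94 CPM in the PKLR livers (log2 fold change 2.75 ± 0.34 SE, adjusted p = 0.00553). PKLR 5 was lowest in its group, at 2.94 CPM, still above the highest GFP liver.

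In pyruvate entry and the citric acid cycle 3 of 32 genes were higher, and the list median was 0.11 (0.06 without GFP 1). Citrate synthase Cs, the entry enzyme of the cycle, had a log2 fold change of 0.48 (adjusted p = 0.0281; 0.044 without GFP 1). Pyruvate dehydrogenase subunit Pdhb had 0.31 (adjusted p = 0.0409), and Pdk1, a kinase that switches that enzyme off, had 0.93 (adjusted p = 0.0271). Both missed the threshold without GFP 1, at 0.0715 and 0.0517. Cs kept its call only in the fits without GFP 1, 2 and 5 and PKLR 5 (adjusted p up to 0.0737 in the rest), Pdhb lost its call in all 10 fits that left out 1 liver (adjusted p up to 0.106), and Pdk1 kept its call only in the fits without GFP 3 and 5 and PKLR 4 and 5 (adjusted p up to 0.0672 in the rest). Among genes of glucose output and glycogen, 2 of 15 were called, and both act on glycogen: the phosphorylase Pygl (0.53, adjusted p = 0.0465) and the branching enzyme Gbe1 (0.62, adjusted p = 0.0376). Pygl kept its call only in the fit without GFP 5 (adjusted p up to 0.108 in the rest), and Gbe1 kept its call only in the fits without GFP 5 and PKLR 2 and 5 (adjusted p up to 0.0897 in the rest).

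Fatty acid synthesis was the pathway with the most called members among the metabolic lists: 7 of 19 genes rose and none fell, where 1.19% of all genes tested were called higher (median 0.32; 5 rose without GFP 1, median 0.25). The 7 are Acly, Acss2, Acaca, Acacb, Fasn, Me1 and Thrsp, of which Acss2 and Me1 were not called without GFP 1. The list scores of the groups overlapped with and without GFP 1, since PKLR 5 (0.19) lay below GFP 5 (0.28). ATP citrate lyase Acly, which turns exported citrate into acetyl-CoA, was at 117, 195, 187, 122 and 178 CPM in the GFP livers and at 406, 470.5, 839.9, 351 and 342 CPM in the PKLR livers (log2 fold change 1.59 ± 0.26 SE, adjusted p = 0.018). PKLR 3 was far above the others, and the groups did not overlap. Acetyl-CoA carboxylase Acaca, which commits acetyl-CoA to fatty acids, went from 89 ± 8.8 to 168 ± 36.3 CPM (SD, n = 5 livers per group; log2 fold change 0.92 ± 0.14 SE, adjusted p = 0.00889), and both Acly and Acaca kept the call whichever liver was left out.

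Fatty acid synthase Fasn was at 219.6, 478, 377, 459.9 and 519 CPM in the GFP livers and at 1062, 941, 1226, 936 and 621 CPM in the PKLR livers (log2 fold change 1.22 ± 0.23 SE, adjusted p = 0.0259; adjusted p = 0.0227 without GFP 1). GFP 1 was the lowest GFP liver and PKLR 5 the lowest PKLR liver. Acacb, the carboxylase at the mitochondrial surface whose product slows fatty acid oxidation, had a log2 fold change of 1.08 (adjusted p = 0.0245). Fasn kept its call only in the fits without GFP 1, 2 and 5 and PKLR 4 and 5 (adjusted p up to 0.06 in the rest), and Acacb kept its call only in the fits without GFP 1, 3 and 5 and PKLR 4 and 5 (adjusted p up to 0.0704 in the rest). Thrsp, a lipogenic protein that responds to thyroid hormone and carbohydrate, was at 16.1, 50.3, 66.2, 71.2 and 139.6 CPM in the GFP livers and 284, 325, 242, 320.4 and 242 CPM in the PKLR livers (log2 fold change 2.04 ± 0.44 SE, adjusted p = 0.0456). GFP 1 was the lowest liver and the groups did not overlap. Thrsp kept its call only in the fits without GFP 1 and 5 (adjusted p up to 0.108 in the rest). The later steps of the pathway were not called: the desaturase Scd1 was at 9907 ± 4540 CPM with GFP and 9102 ± 3795 CPM with PKLR (SD, n = 5 livers per group; adjusted p = 0.902), and log2 fold changes were 0.46 for the elongase Elovl6, -0.12 for Fads1 and -0.11 for Fads2. Srebf1, the gene of SREBP-1, was at 71.2, 198, 229.5, 283 and 284 CPM in the GFP livers and 191, 278, 282, 244 and 269 CPM in the PKLR livers, where only GFP 1 lay apart (adjusted p = 0.708, and 0.954 without it).

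**Figure D2:**
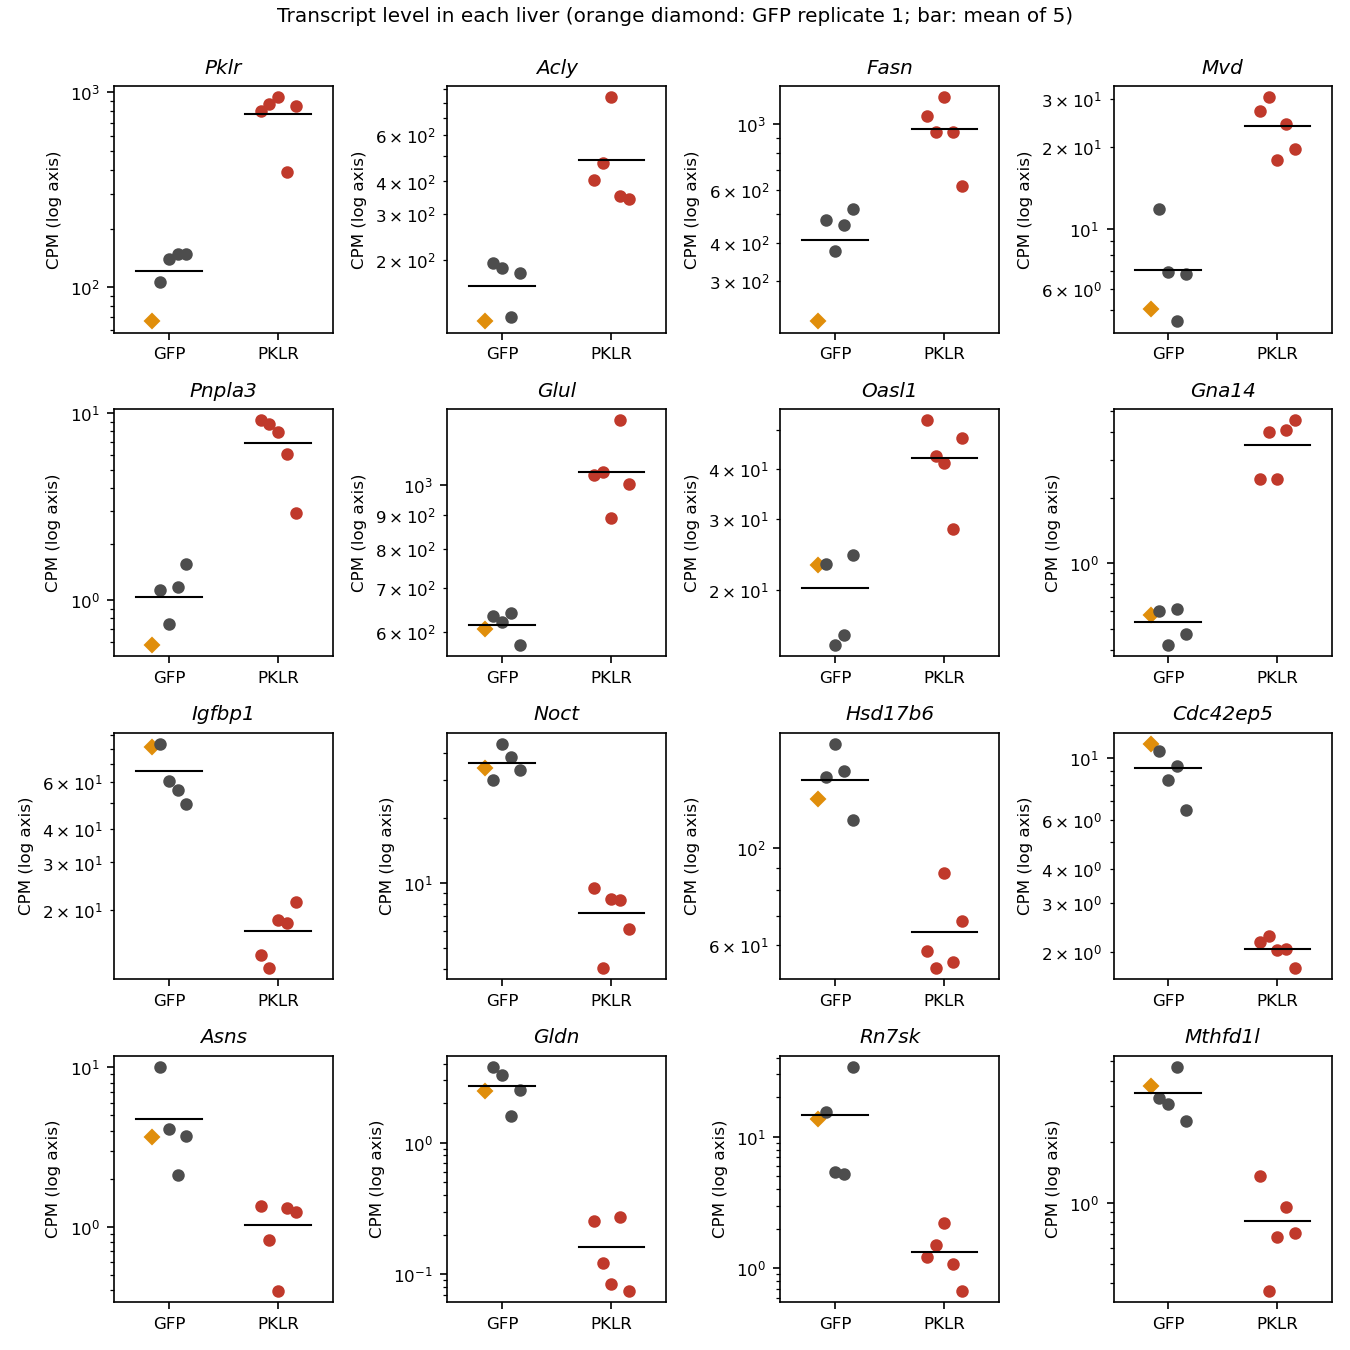
Level of 16 transcripts in each liver, in CPM on a log axis; points are livers, bars are means of 5, and the orange diamond is GFP replicate 1. In all 16 panels the GFP and PKLR livers do not overlap, and GFP replicate 1 is the lowest liver for Pklr, Acly, Fasn and Pnpla3.

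Fewer genes of lipid storage and breakdown were called. In the list of triglyceride and lipid droplet genes Pnpla3 rose and Lpl fell among 26 members (median 0.01). Lipoprotein lipase Lpl, which is also a marker of lipid-associated macrophages, had a log2 fold change of -1.83 (adjusted p = 0.0237; 0.0585 without GFP 1). Lpl kept its call only in the fits without GFP 3 and 5 and PKLR 1, 2 and 5 (adjusted p up to 0.0587 in the rest). Among 38 genes of fatty acid oxidation and ketone production, only the thioesterase Acot1 was called, lower, and the median was -0.08. Acot1 was at 107, 33.2, 41.5, 40 and 35.7 CPM in the GFP livers and 25.8, 15.6, 14.9, 13.3 and 13.1 CPM in the PKLR livers (log2 fold change -1.64 ± 0.35 SE, adjusted p = 0.0469). GFP 1 was far above all other livers, and without it the log2 fold change was -1.18 (adjusted p = 0.0237). Acot1 kept its call only in the fits without GFP 1 and 5 and PKLR 1 (adjusted p up to 0.105 in the rest), and its reads may be shared with its close paralogs. Acot11, another acyl-CoA thioesterase, moved the other way: it was at 1.35, 1.29, 1.49, 2.15 and 3.13 CPM in the GFP livers and 8.9, 8.15, 8.62, 7.7 and 6.74 CPM in the PKLR livers (log2 fold change 2.09 ± 0.23 SE, adjusted p = 0.00191), without overlap, and kept the call whichever liver was left out. Of 23 genes of lipoprotein secretion none was called.

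Cholesterol synthesis genes had higher means with PKLR in 19 of 20 cases, and 6 rose (median 0.75; 2 rose without GFP 1, median 0.71). Among them are Hmgcs1, Mvd, Fdps, Lss and Hsd17b7, which span the path from acetyl-CoA units to sterols, and of these 5 Mvd was called without GFP 1. List scores were -0.13, 0.63, 0.20, -0.61 and -0.09 in the GFP livers and 0.83, 1.04, 0.69, 1.07 and 0.66 in the PKLR livers. GFP 2 came close to the lowest PKLR livers and GFP 4 was lowest of all, but the groups did not overlap. Over the fits without 1 liver the list median ran from 0.65 without GFP 4 to 1.02 without GFP 2. Mevalonate diphosphate decarboxylase Mvd was at 5.08, 11.8, 6.91, 4.55 and 6.78 CPM in the GFP livers and 27.3, 30.5, 17.9, 24.3 and 19.6 CPM in the PKLR livers (log2 fold change 1.77 ± 0.25 SE, adjusted p = 0.0109). Mvd kept the call in each fit without 1 liver, and the groups did not overlap. Hsd17b7 kept its call only in the fits without GFP 2 and PKLR 5 (adjusted p up to 0.0823 in the rest). Among the 17 genes that sense and move sterols, 2 rose, among them the sterol carrier Stard4 (log2 fold change 0.75 ± 0.17 SE, adjusted p = 0.0481). Stard4 kept its call only in the fits without GFP 3 and 5 (adjusted p up to 0.102 in the rest).

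SREBP factors bind a sterol element, and its word TCACCCCAC was searched on both strands in RefSeq promoters of GRCm38.p6 (a window from upstream of each start to just after it). It is in 1 of 18 promoters found for 15 of the 20 cholesterol genes, in 0 of 20 promoters of the lipogenic list and in 0.551% of all 32851 promoters. The match is in Hmgcs1, HMG-CoA synthase, which was called (log2 fold change 0.92, adjusted p = 0.0494; 0.106 without GFP 1). Hmgcs1 kept its call only in the fit without GFP 2 (adjusted p up to 0.106 in the rest). The stretch around it, on the + strand at chr13:119690184-119690252, is shown to mark where the word lies, in capitals, from base -137 to -129 of the start.
Hmgcs1: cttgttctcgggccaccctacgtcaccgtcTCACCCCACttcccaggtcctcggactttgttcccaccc

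Markers of hepatocyte position also differed. Pericentral genes had higher means in 16 of 17 cases, 2 of which rose (median 0.46, 0.39 without GFP 1). Glutamine synthetase Glul, the marker of the cells next to the central vein, was at 606, 634, 622, 640.2 and 574 CPM in the GFP livers and 1037, 1046, 892, 1252 and 1005 CPM in the PKLR livers (log2 fold change 0.77 ± 0.10 SE, adjusted p = 0.00553). The GFP livers lay close together and all PKLR livers lay above them, and the call was kept whichever liver was left out. Nkd1, a feedback inhibitor of Wnt signalling, also rose (log2 fold change 0.61 ± 0.13 SE, adjusted p = 0.0329; 0.0509 without GFP 1), as did Wnt9b, a Wnt ligand of endothelial cells (log2 fold change 1.17 ± 0.22 SE, adjusted p = 0.024; 0.0504 without GFP 1). Nkd1 kept its call only in the fits without GFP 5 and PKLR 4 and 5 (adjusted p up to 0.079 in the rest), and Wnt9b kept its call only in the fits without GFP 3 and 5 and PKLR 4 and 5 (adjusted p up to 0.0704 in the rest). Of 20 endothelial genes Wnt9b was the only call, and the list median was 0.04. Wnt9b was a rare transcript, at 0.37 ± 0.07 CPM with GFP and 0.83 ± 0.13 CPM with PKLR (SD, n = 5 livers per group).

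Periportal genes had lower means in 10 of 14 cases, and 2 fell (median -0.45, -0.47 without GFP 1, again with 2 calls). The list scores of the groups overlapped, with PKLR 3 (-0.14) just above GFP 2 (-0.16). Hsd17b6, a steroid dehydrogenase, was at 129, 145, 173, 149 and 116 CPM in the GFP livers and 58.1, 53.1, 87.5, 54.8 and 68.2 CPM in the PKLR livers (log2 fold change -1.15 ± 0.15 SE, adjusted p = 0.00553). The mitochondrial aldehyde dehydrogenase Aldh1b1 went from 117 ± 18.5 to 47 ± 15.8 CPM (SD, n = 5 livers per group; log2 fold change -1.32 ± 0.21 SE, adjusted p = 0.0151). Neither gene's groups overlapped, and both kept the call in each fit without 1 liver. No gene of the urea cycle was called (8 tested, 5 with higher means, median 0.01). Without GFP 1 all 8 had lower means (median -0.07), again with no call.

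Growth factor and insulin-linked genes gave 1 rise and 1 fall among 26 tested. Igfbp1, a secreted IGF-binding protein that insulin represses, was at 81.3, 83.5, 60.5, 56.2 and 49.4 CPM in the GFP livers and 13.5, 12.1, 18.3, 17.9 and 21.3 CPM in the PKLR livers (log2 fold change -1.996 ± 0.19 SE, adjusted p = 0.00107; adjusted p = 0.00331 without GFP 1). Every PKLR liver was under 0.5 of every GFP liver. Pik3r1, the regulatory subunit of PI3 kinase, rose (log2 fold change 0.50 ± 0.09 SE, adjusted p = 0.0227). Pik3r1 lost its call without any 1 of GFP 2 and 4 (adjusted p up to 0.0586). Igfbp1 was also the only call among 20 secreted hepatokines.

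Few amino acid and one-carbon genes were called, and 0.846% of all genes tested were called lower. In the list of the amino acid stress response and serine synthesis, 2 of 21 fell (median -0.18). Without GFP 1 only Atf5 of them fell (median -0.12), and the median ran from -0.31 without GFP 5 to -0.03 without PKLR 2. Asparagine synthetase Asns was at 3.66, 10, 4.09, 2.12 and 3.71 CPM in the GFP livers and 1.35, 0.824, 0.394, 1.31 and 1.23 CPM in the PKLR livers (log2 fold change -2.21 ± 0.44 SE, adjusted p = 0.0321; adjusted p = 0.0536 without GFP 1). GFP 2 was far above the other GFP livers, and the groups did not overlap. Atf5, a transcription factor of the same response, had a log2 fold change of -0.51 (adjusted p = 0.0398). Asns kept its call only in the fits without GFP 2, 4 and 5 (adjusted p up to 0.0739 in the rest), and Atf5 kept its call only in the fits without GFP 1 and 5 and PKLR 3 (adjusted p up to 0.0896 in the rest). Mthfd1l, a mitochondrial enzyme of the folate pathway that is in none of the lists, was at 3.76, 3.29, 3.05, 4.67 and 2.54 CPM in the GFP livers and 1.35, 0.366, 0.676, 0.948 and 0.708 CPM in the PKLR livers (log2 fold change -2.08 ± 0.29 SE, adjusted p = 0.00718) and kept the call whichever liver was left out. Among 36 genes of amino acid breakdown only Cth, which makes cysteine, was called (log2 fold change -0.58 ± 0.13 SE, adjusted p = 0.0427). Cth lost its call in all 10 fits that left out 1 liver (adjusted p up to 0.0827), and without GFP 1 the proline dehydrogenase gene Prodh was called instead (log2 fold change 0.57, adjusted p = 0.0388).

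Of 21 clock genes 1 was called with 10 livers. Noct, an output gene whose product removes phosphate from NADP(H), was at 34, 29.9, 44.1, 38.3 and 33.1 CPM in the GFP livers and 9.46, 4.03, 8.45, 8.28 and 6.11 CPM in the PKLR livers (log2 fold change -2.30 ± 0.20 SE, adjusted p = 0.000705). Every GFP liver was more than 3-fold above every PKLR liver, GFP 1 lay within its group, and the call was kept whichever liver was left out. Core clock outputs differed between GFP 1 and the rest instead: the D-box factor Dbp was at 1.13, 14.4, 14.5, 6.23 and 21.5 CPM in the GFP livers and 19.2, 32.3, 13.2, 35.2 and 27 CPM in the PKLR livers, with an adjusted p of 0.318. The list median was 0.30 with GFP 1 and 0.11 without it.

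Drug and steroid metabolism gave calls in both directions. Of 42 genes in the list of P450 enzymes, which also holds their electron donor and 2 nuclear receptors that regulate them, 2 rose and 3 fell (median 0.09). Without GFP 1, 2 rose and 1 fell (median 0.17), and over the fits without 1 liver the median ran from 0.06 without PKLR 3 to 0.23 without GFP 4. Cyp2c37, an enzyme that oxidises arachidonic acid, was at 25.5, 35.5, 71.7, 41.1 and 78.5 CPM in the GFP livers and 196, 238, 279, 137 and 279 CPM in the PKLR livers (log2 fold change 2.16 ± 0.33 SE, adjusted p = 0.0139), without overlap and with the call kept in each fit without 1 liver. Cyp3a11, the main mouse drug-oxidising 3a enzyme, went from 1980 ± 454 to 873 ± 283 CPM (SD, n = 5 livers per group; log2 fold change -1.18 ± 0.23 SE, adjusted p = 0.0296; 0.0653 without GFP 1), and Cyp2c55 had a log2 fold change of -0.82 (adjusted p = 0.0188). Cyp3a11 kept its call only in the fits without GFP 3 and 5 and PKLR 2 and 3 (adjusted p up to 0.0747 in the rest), and Cyp2c55 lost its call without GFP 4 (adjusted p = 0.0509). These families hold near-identical genes, so reads may be split or shared among them.

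Among 40 conjugation and NRF2 target genes the glutathione transferases Gstm3 (-1.85, adjusted p = 0.032) and Gsta4 (-0.87, adjusted p = 0.0329) fell and the bilirubin-conjugating enzyme Ugt1a1 (0.77, adjusted p = 0.043) rose, and none of the 3 was called without GFP 1 (0.0724, 0.0702 and 0.0505). Gstm3 kept its call only in the fits without GFP 3 and 5 and PKLR 1 (adjusted p up to 0.078 in the rest), Gsta4 kept its call only in the fits without GFP 2 and 5 and PKLR 3 (adjusted p up to 0.0828 in the rest), and Ugt1a1 kept its call only in the fits without GFP 3 and 5 and PKLR 2 (adjusted p up to 0.0954 in the rest). Of 24 bile acid and oxysterol genes 2 rose: Slc10a1, the sodium-linked bile acid importer (log2 fold change 0.82 ± 0.16 SE, adjusted p = 0.0267; 0.0255 without GFP 1), and Cyp46a1, cholesterol 24-hydroxylase (log2 fold change 2.15 ± 0.47 SE, adjusted p = 0.0494; 0.113 without it). Slc10a1 kept its call only in the fits without GFP 1, 3 and 5 and PKLR 1 (adjusted p up to 0.0708 in the rest), and Cyp46a1 kept its call only in the fits without GFP 3 and PKLR 5 (adjusted p up to 0.12 in the rest).

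Genes that differ between the sexes in mouse liver spread widely within both groups. The 24 male-biased genes had a median of 0.87 with 1 call, and scores were -0.64, 0.30, -0.01, -0.32 and 0.66 in the GFP livers and 0.05, 1.62, -0.32, 1.22 and 1.82 in the PKLR livers. PKLR 2, PKLR 4 and PKLR 5 were high, PKLR 1 and PKLR 3 lay among the GFP livers, and GFP 1 was the lowest of all. Hsd3b5, a male-specific steroid enzyme, was at 3.03, 21.5, 38.9, 11.9 and 95.7 CPM in the GFP livers and 16.3, 184, 12.5, 107 and 219.9 CPM in the PKLR livers, with an adjusted p of 0.388. Called were Cyp2d9 among the male-biased genes (log2 fold change 1.17 ± 0.26 SE, adjusted p = 0.0469; 0.0382 without GFP 1) and Cyp3a44 among 14 female-biased ones (log2 fold change -1.61 ± 0.35 SE, adjusted p = 0.0466; 0.0739 without GFP 1). Cyp2d9 kept its call only in the fits without GFP 1 and 5 (adjusted p up to 0.111 in the rest), and Cyp3a44 kept its call only in the fit without GFP 5 (adjusted p up to 0.105 in the rest). Esr1, the oestrogen receptor, was the only call among 24 hepatocyte transcription factors (log2 fold change -0.52 ± 0.12 SE, adjusted p = 0.048). Esr1 kept its call only in the fits without GFP 5 and PKLR 4 (adjusted p up to 0.107 in the rest).

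Type I interferon response genes formed the list with the most calls of all: 8 of 41 rose and none fell, again beside 1.19% of all genes (median 0.51; without GFP 1, 5 rose with a median of 0.53). Among them are Oasl1, Ddx58, Ifih1, Dhx58, Parp12, Dtx3l and Herc6, of which Oasl1, Ifih1 and Parp12 were called without GFP 1, as were Adar and Eif2ak2. In all, 39 of the list had higher means with PKLR. Oasl1, a 2'-5' oligoadenylate synthetase-like protein, was at 23.2, 23.3, 14.7, 15.5 and 24.5 CPM in the GFP livers and 52.7, 43, 41.4, 28.5 and 47.6 CPM in the PKLR livers (log2 fold change 1.07 ± 0.19 SE, adjusted p = 0.0188) and kept the call whichever liver was left out. PKLR 4 was the lowest PKLR liver and lay just above the highest GFP liver. List scores were 0.39, 0.25, -0.27, -0.41 and 0.04 in the GFP livers and 0.81, 0.52, 0.56, -0.10 and 0.73 in the PKLR livers, so that PKLR 4 lay within the GFP range. The double-stranded RNA sensor Ifih1 (MDA5) had a log2 fold change of 0.64 (adjusted p = 0.0259) and the ADP-ribosyltransferase Parp12 one of 0.51 (adjusted p = 0.0262). Ifih1 kept its call only in the fits without GFP 1, 2 and 5 and PKLR 2 and 4 (adjusted p up to 0.0633 in the rest), and Parp12 lost its call without any 1 of GFP 3 and 4 and PKLR 2 and 3 (adjusted p up to 0.0737). In the neighbouring list of interferon gamma and MHC class I genes 23 of 26 had higher means, and the peptide transporter Tap1 was called (log2 fold change 0.46 ± 0.10 SE, adjusted p = 0.0416). Tap1 kept its call only in the fits without GFP 2 and PKLR 4 (adjusted p up to 0.0938 in the rest). The summed level of the interferon list ran from 1043 to 1619 CPM in GFP livers and from 1178 to 2094 CPM in PKLR livers.

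The interferon response element was searched as GAAANNGAA on both strands. It is in 17 of 33 promoters (51.5%) found for 28 of the 41 interferon genes, in 2 of 6 promoters of called members, and in 8.56% of all promoters. The called gene Ifih1 has 1 match before its start, shown here in capitals from base -112 to -104 on the minus strand at chr2:62646329-62646397; the capitals read as the reverse complement of the word.
Ifih1: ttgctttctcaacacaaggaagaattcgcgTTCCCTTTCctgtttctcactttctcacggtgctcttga

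Acute phase genes gave 2 rises among 24 tested, both orosomucoids, abundant plasma carrier proteins. Orm3 was at 0.77, 0.395, 0.422, 0.81 and 0.67 CPM in the GFP livers and 4.39, 2.2, 1.83, 2.29 and 3.24 CPM in the PKLR livers (log2 fold change 2.17 ± 0.30 SE, adjusted p = 0.00656), and Orm1 went from 338 ± 51.6 to 543 ± 81.8 CPM (SD, n = 5 livers per group; log2 fold change 0.68 ± 0.13 SE, adjusted p = 0.0259). Orm2 was at 52.3 CPM in GFP 1, above all other GFP livers, and was called only without that liver (log2 fold change 0.56, adjusted p = 0.0362; 0.25 and 0.605 with it). The 3 genes are close copies, so their counts are uncertain. Orm1 kept its call only in the fits without GFP 1, 3 and 5 and PKLR 1 and 3 (adjusted p up to 0.0737 in the rest). Of the coagulation genes 1 of 21 was called, the anticoagulant protein S gene Pros1 (log2 fold change -0.37 ± 0.07 SE, adjusted p = 0.0242). Pros1 lost its call without any 1 of GFP 4 and PKLR 3 (adjusted p up to 0.0646). No complement gene was called (20 tested).

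Genes of matrix, stellate cells and lipid-associated macrophages mostly had lower means with PKLR, but few were called. The 37 matrix genes had lower means in 35 cases (median -0.85, -0.75 without GFP 1), but only biglycan Bgn (log2 fold change -0.82 ± 0.18 SE, adjusted p = 0.0473) and thrombospondin Thbs2 (log2 fold change -1.13 ± 0.24 SE, adjusted p = 0.0341) fell, and neither was called without GFP 1 (0.101 and 0.0633). Bgn kept its call only in the fits without GFP 3 and 5 and PKLR 1 (adjusted p up to 0.112 in the rest), and Thbs2 kept its call only in the fits without GFP 3 and 5 and PKLR 1 (adjusted p up to 0.0836 in the rest). Matrix scores were 0.46, 0.53, -0.57, -0.03 and -0.39 in the GFP livers and -0.28, -0.85, -0.75, -0.51 and -1.20 in the PKLR livers, and the groups overlapped. Summed matrix levels ran from 641 to 1168 CPM in GFP livers and from 426 to 722 CPM in PKLR livers.

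Stellate cell markers, the vitamin A storing cells that make matrix, had lower means in 15 of 18 cases (median -0.58, -0.52 without GFP 1). The pericyte gene Rgs5 (log2 fold change -1.12 ± 0.22 SE, adjusted p = 0.0309), cytoglobin Cygb (log2 fold change -0.90 ± 0.18 SE, adjusted p = 0.0293) and the lectin Colec11 (log2 fold change -0.73 ± 0.15 SE, adjusted p = 0.036) fell, and none was called without GFP 1 (0.071, 0.0556 and 0.0763). Rgs5 kept its call only in the fits without GFP 3 and 5 and PKLR 1, 2 and 4 (adjusted p up to 0.0751 in the rest), Cygb kept its call only in the fits without GFP 2, 3 and 5 (adjusted p up to 0.0737 in the rest), and Colec11 kept its call only in the fits without GFP 3 and 5 and PKLR 1 (adjusted p up to 0.0911 in the rest). Lrat, which makes the stored vitamin A esters, had a log2 fold change of -0.05, and Acta2, the smooth muscle actin of activated cells, one of 0.03. The summed level of the 18 markers ran from 346 to 527 CPM in GFP livers and from 268 to 394 CPM in PKLR livers.

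Lipid-associated macrophage markers had a median of -1.02 over 19 genes, and -0.67 without GFP 1. Gpnmb, a glycoprotein of lipid-laden macrophages, was at 17.6, 16, 3.8, 7.99 and 1.51 CPM in the GFP livers and 1.99, 0.244, 0.704, 0.428 and 0.521 CPM in the PKLR livers (log2 fold change -3.55 ± 0.75 SE, adjusted p = 0.0427; adjusted p = 0.094 without GFP 1). PKLR 1 was above GFP 5, so the groups overlapped. Gpnmb kept its call only in the fits without GFP 5 and PKLR 1 (adjusted p up to 0.0975 in the rest). Scores of the list were 0.79, 0.49, -0.65, 0.12 and -0.73 in the GFP livers and -0.39, -1.28, -0.90, -0.84 and -1.21 in the PKLR livers, and GFP 3 and GFP 5 lay among the PKLR livers. Kupffer cell markers, the resident macrophages, had a median of -0.02 and no call (16 tested), and their summed level ran from 367 to 797 CPM in GFP livers and from 329 to 652 CPM in PKLR livers. All 7 MHC class II genes had lower means (median -0.89) and none was called. Of 17 chemokines Ccl9 fell, at 64.2, 42, 47.1, 44.7 and 45.8 CPM in the GFP livers and 23.6, 24.4, 22.8, 21.9 and 30.3 CPM in the PKLR livers (log2 fold change -0.99 ± 0.12 SE, adjusted p = 0.00553), without overlap and in each fit without 1 liver. Among 19 lymphocyte genes the antibody light chain gene Igkc fell (log2 fold change -0.74 ± 0.16 SE, adjusted p = 0.0389). Igkc kept its call only in the fits without GFP 3 and 4 and PKLR 5 (adjusted p up to 0.083 in the rest). Neutrophil markers summed to at most 8.43 CPM, with Ly6g, Mpo and 5 others at a mean under 0.1 CPM, and of pancreatic acinar markers none passed the filter. What part these cells have in the other results was not tested.

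**Figure D3:**
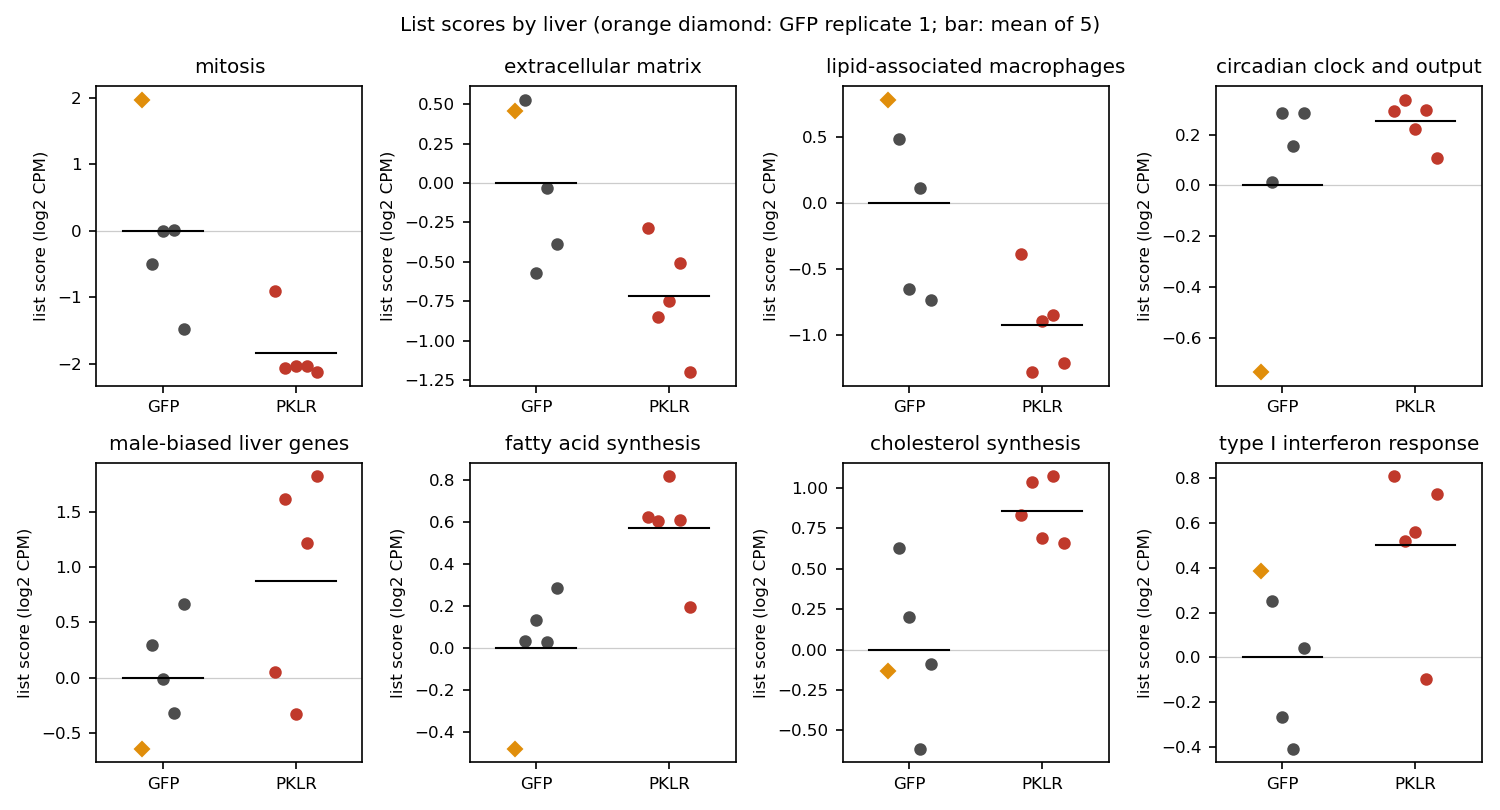
Scores of 8 gene lists in each liver (mean log2 CPM of tested members less the mean of the 5 GFP livers); bars are means of 5 and the orange diamond is GFP replicate 1. GFP replicate 1 is highest for mitosis (1.97) and lowest for the clock list (-0.74), while the cholesterol scores of the 2 groups do not overlap.

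Mitosis genes had the largest median difference of the lists with 10 livers, but not without GFP 1, where that of structural noncoding RNA was larger (-1.65). All 37 had lower means with PKLR (median -2.34), yet 1 was called; without GFP 1 the median was -1.50 and 3 were called. Scores were 1.97, -0.50, -0.002, 0.01 and -1.48 in the GFP livers and -0.91, -2.07, -2.03, -2.04 and -2.13 in the PKLR livers. GFP 1 was the highest liver in 37 of 37 genes, GFP 5 lay below PKLR 1, and the other 4 PKLR livers were lowest. The proliferation marker Mki67 was at 49.9, 6.37, 9.6, 11.3 and 2.99 CPM in the GFP livers and 5.15, 1.8, 1.72, 1.47 and 1.86 CPM in the PKLR livers (adjusted p = 0.0938). Birc5, survivin, was called both with GFP 1 (log2 fold change -2.09 ± 0.47 SE, adjusted p = 0.04999) and without it (-1.51, adjusted p = 0.0484). The cyclin gene Ccnb2 was not called with 10 livers (-2.88, adjusted p = 0.0534) but was without GFP 1, at a smaller difference (-1.98, adjusted p = 0.0365). The same held for Stmn1, a microtubule regulator (-1.80, adjusted p = 0.0786, and -1.16, adjusted p = 0.0473 without GFP 1). Both genes were called in 2 of the 10 fits that left out 1 liver. Birc5 kept its call only in the fits without GFP 1 and 5 (adjusted p up to 0.118 in the rest). The 29 replication genes had a median of -0.08 and no call. Of 16 p53 targets the antiproliferative gene Btg2 fell, from 24.7, 25.1, 15, 16.2 and 11.9 CPM in the GFP livers to 7.45, 4.95, 6.79, 8.1 and 9.61 CPM in the PKLR livers (log2 fold change -1.34 ± 0.23 SE, adjusted p = 0.0188), and kept the call whichever liver was left out.

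Many promoters of mitotic genes hold the cell cycle homology region TTTGAA. On both strands this short word is in 28 of 33 promoters (84.8%) found for 31 of the 37 genes, and in 17.9% of all promoters. It is not in the 1 promoter found for Birc5, the member called with 10 livers. Ccnb2, called without GFP 1 but not with 10 livers, has 2 matches, 1 from base 4 to 9 and 1 before the start. The latter lies from base -167 to -162 of the start, here in capitals, on the minus strand at chr9:70421686-70421751.
Ccnb2: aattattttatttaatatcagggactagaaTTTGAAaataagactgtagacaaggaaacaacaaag

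Some noncoding RNAs transcribed by RNA polymerase III fell with PKLR. Of 7 structural RNAs that passed the filter 4 fell, with and without GFP 1, and the list median was -1.63 (-1.65 without it). The 7SK RNA gene Rn7sk, a scaffold that holds the elongation factor P-TEFb inactive, was at 13.6, 15.4, 5.42, 5.17 and 33.9 CPM in the GFP livers and 1.23, 1.5, 2.22, 1.07 and 0.67 CPM in the PKLR livers (log2 fold change -3.44 ± 0.57 SE, adjusted p = 0.0188). Rpph1, the RNA of RNase P, was at 2.26, 3.34, 1.75, 1.2 and 5.61 CPM and 0.23, 0.488, 0.535, 0.428 and 0.223 CPM (log2 fold change -2.88 ± 0.44 SE, adjusted p = 0.0109), and Rn7s1, a gene of the signal recognition particle RNA, had a log2 fold change of -1.65 (adjusted p = 0.0188). For the 3 genes the groups did not overlap and the call was kept whichever liver was left out, but the GFP livers spread widely, with GFP 5 highest and GFP 4 lowest for both Rn7sk and Rpph1. These RNAs have many copies in the genome, so their counts are uncertain. The other 3 members tested, Scarna2, Scarna17 and Snord118, were not called, and 14 listed RNAs did not reach the test. How the libraries kept short RNAs was not tested.

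Genes of protein handling gave no call. All 19 ER chaperones had higher means (median 0.32) and the smallest adjusted p was that of Hyou1 (0.103). PKLR 5 had the highest chaperone score (0.71), the groups overlapped, and the median was 0.20 without that liver. Proteasome genes had higher means in 29 of 31 cases (median 0.14), and ribosomal protein genes had lower means in 44 of 50 (median -0.11, -0.06 without PKLR 1). The 13 mitochondrially encoded genes all had higher means (median 0.27) and the 56 nuclear genes of the respiratory chain had a median of 0.06. Without GFP 1, the lowest liver in 41 of those 56, the median was 0.01 and 32 had higher means, against 41 with it.

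**Figure D4:**
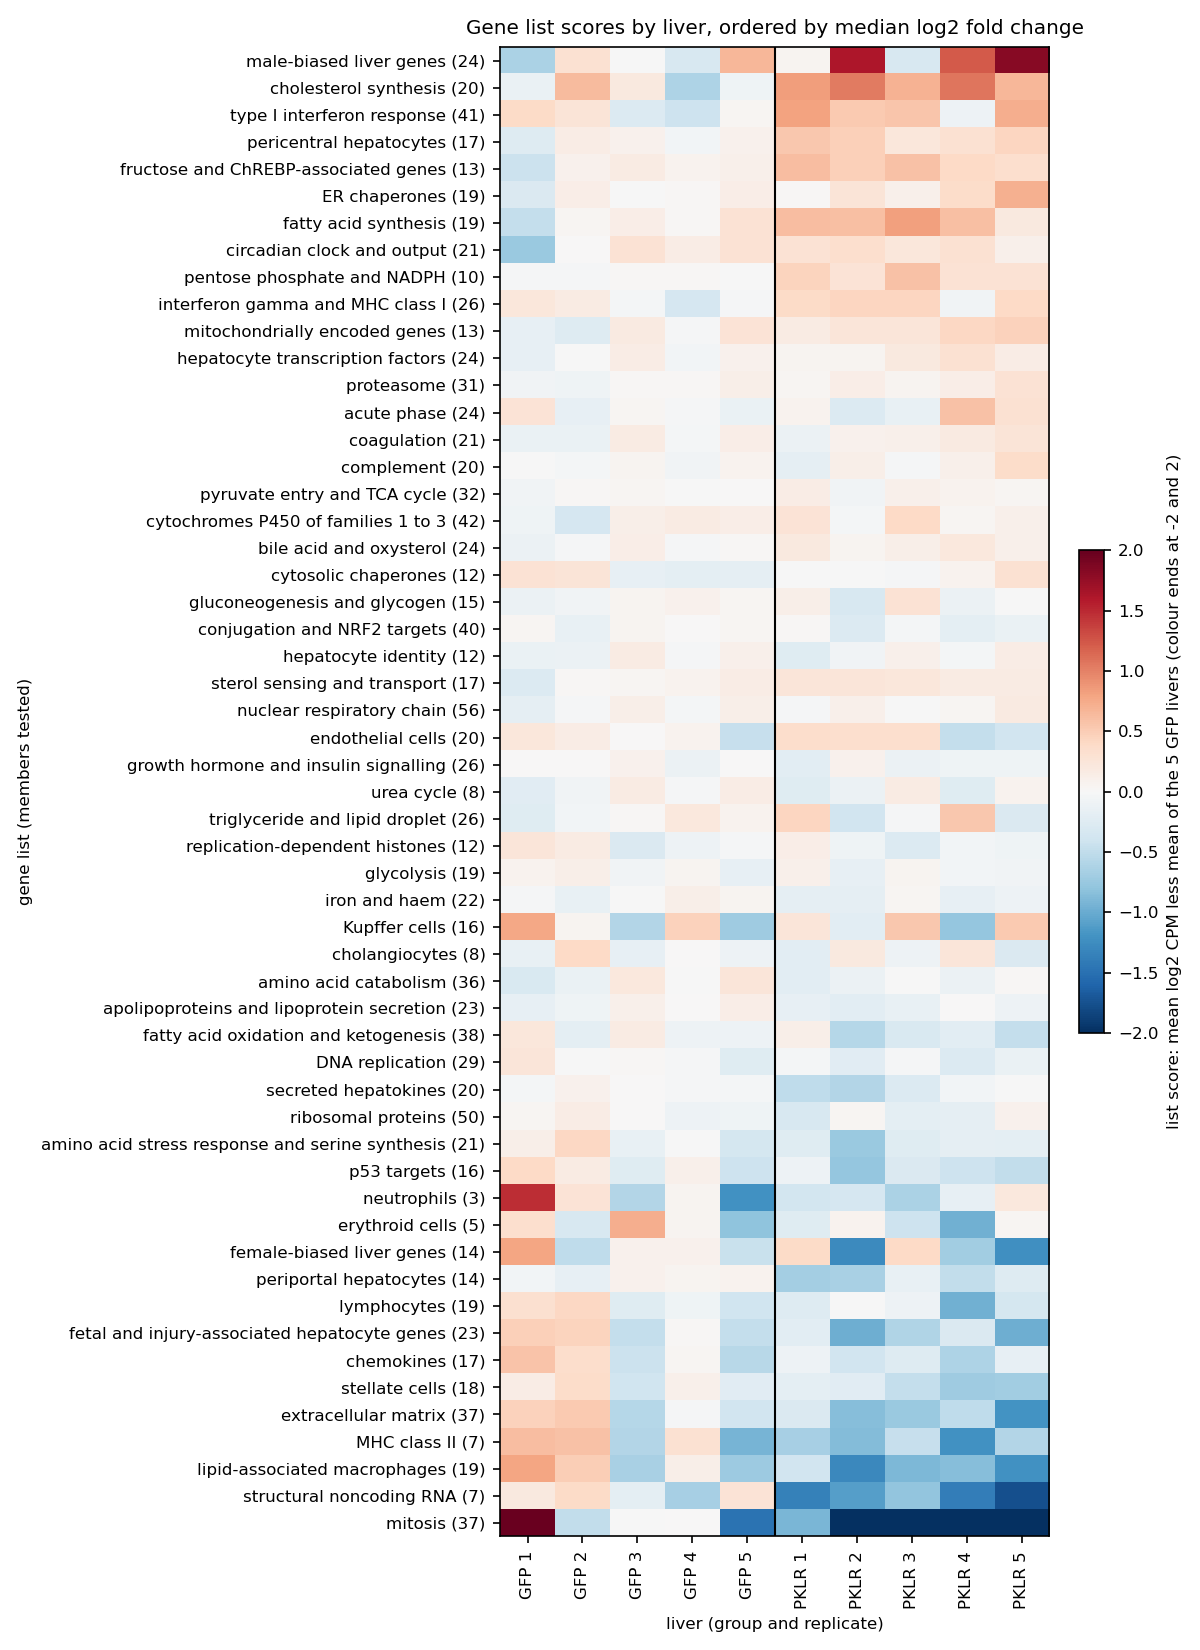
Score of each gene list with at least 3 tested members in each liver, as colour from blue (lower than the GFP mean) to red (higher), ordered by the median log2 fold change of PKLR over GFP; the line separates the groups. Cholesterol and pentose phosphate lists are red in all 5 PKLR livers, structural RNA is blue in all 5, and GFP replicate 1 stands out in the mitosis, neutrophil and clock lists.

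Of the called genes 75 are in a list, which is 75 of 1142 list genes tested beside 322 of all 15842, and the other called genes are in none. The lists were chosen with earlier results of these data known, so these counts cannot serve as a test of the lists. Gna14 is in none of the lists and kept its call in each fit without 1 liver. It encodes a G protein subunit of the Gq family and was at 0.578, 0.606, 0.422, 0.615 and 0.474 CPM in the GFP livers and 2.45, 4, 2.45, 4.1 and 4.54 CPM in the PKLR livers (log2 fold change 2.69 ± 0.23 SE, adjusted p = 0.000512). Among rarer transcripts, picked after their values were seen, the receptor gene Mas1 (log2 fold change 3.06 ± 0.49 SE, adjusted p = 0.0129) and Pnpla5, a relative of Pnpla3 (log2 fold change 2.70 ± 0.45 SE, adjusted p = 0.0148), rose with each GFP liver under 0.4 CPM. Rarres1, a retinoic acid induced membrane protein (log2 fold change 1.98 ± 0.32 SE, adjusted p = 0.018), the ubiquitin ligase Pdzrn3 (log2 fold change 1.70 ± 0.28 SE, adjusted p = 0.0146) and the tau kinase Ttbk1 (log2 fold change 1.68 ± 0.24 SE, adjusted p = 0.00785) also rose in each fit without 1 liver. Gliomedin Gldn, an adhesion protein known from peripheral nerve, was at 2.46, 3.77, 3.28, 1.59 and 2.51 CPM in the GFP livers and 0.255, 0.122, 0.0845, 0.275 and 0.0745 CPM in the PKLR livers (log2 fold change -4.01 ± 0.36 SE, adjusted p = 0.000553). Gucy2c, the receptor of guanylin, was at 2.91, 3.34, 3.47, 1.09 and 1.51 CPM and 0.23, 0.122, 0.338, 0.122 and 0.298 CPM (log2 fold change -3.46 ± 0.41 SE, adjusted p = 0.0034). Both are rare transcripts, of which each PKLR liver held under 0.4 CPM and each GFP liver over 1 CPM.

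Cdc42ep5, an effector of the small GTPase CDC42 that shapes the cytoskeleton, had the smallest adjusted p of the comparison. It was at 11.3, 10.6, 8.34, 9.38 and 6.53 CPM in the GFP livers and 2.17, 2.29, 2.03, 2.05 and 1.75 CPM in the PKLR livers (log2 fold change -2.16 ± 0.16 SE, adjusted p = 0.000114; 0.000281 without GFP 1). The PKLR livers lay within a narrow range far under every GFP liver. Esm1, the secreted proteoglycan endocan (log2 fold change -2.60 ± 0.34 SE, adjusted p = 0.00553), and the tubulin gene Tuba8 (log2 fold change -2.41 ± 0.28 SE, adjusted p = 0.00339) fell as well, and neither had overlapping groups or lost its call when a liver was left out.

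A run of zinc finger genes on chromosome 4, chosen after the calls were seen, was higher with PKLR. Between Zfp980 (GRCm38, start 145670685) and Zfp933 (end 147848366) 12 such genes were tested, and 7 rose, namely Zfp979, Zfp981, Zfp982, Zfp991, Zfp992, Zfp993 and the pseudogene Znf41-ps. Their log2 fold changes ran from 0.97 to 2.01, none of their groups overlapped, and 5 of the 7 were called without GFP 1. Zfp992 was at 4.09, 3.92, 2.53, 5.17 and 4.24 CPM in the GFP livers and 7.22, 9.59, 8.67, 11.5 and 11.1 CPM in the PKLR livers (log2 fold change 1.26 ± 0.18 SE, adjusted p = 0.00781). Neighbours in the same stretch such as Zfp984 (-0.19) and Zfp980 (0.16) were not called. Genes of this stretch are near-copies of each other and can share reads, so the 7 calls may not be separate observations. In the knockdown livers their log2 fold changes ran from -0.77 to 0.26, with 3 of 7 negative.

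Genes that lost their call without GFP 1 and had the largest differences were Gpnmb, Chrna4, Asns, Cyp46a1, Slc22a7, Gstm3, Hcn3, Lpl, Cadm4 and Aatk, of those with a mean of at least 2 CPM and leaving out predicted genes. Chrna4, a nicotinic receptor subunit, was at 1.37, 4.26, 2.63, 0.894 and 2.9 CPM in the GFP livers and 13.1, 37.8, 20.7, 12.8 and 6 CPM in the PKLR livers (log2 fold change 2.91 ± 0.53 SE, adjusted p = 0.0263; log2 fold change 2.75 and adjusted p = 0.0737 without GFP 1). Slc22a7, an organic anion transporter, had log2 fold changes of 2.03 with and 1.86 without GFP 1 (adjusted p = 0.0386 and 0.0872). The kinase gene Aatk had 1.63 and 1.44 (0.0373 and 0.0517), and the adhesion gene Cadm4 1.77 and 1.65 (0.0476 and 0.111). The differences thus changed little while the adjusted p passed the threshold. Chrna4 lost its call without any 1 of GFP 1, 3 and 4 and PKLR 3 (adjusted p up to 0.0737), Slc22a7 kept its call only in the fits without GFP 5 and PKLR 1 and 3 (adjusted p up to 0.102 in the rest), Aatk kept its call only in the fits without GFP 5 and PKLR 3 (adjusted p up to 0.0912 in the rest), and Cadm4 kept its call only in the fits without GFP 5 and PKLR 1 (adjusted p up to 0.117 in the rest).

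Of the 15 genes called without GFP 1 but not with 10 livers, 11 were higher and 4 lower. Insig1, the sterol-regulated brake on SREBP activation, had a log2 fold change of 0.64 there (adjusted p = 0.0433; 0.78 and 0.0534 with all livers). The RNA editing enzyme Adar (0.55, adjusted p = 0.0473) and the kinase Eif2ak2 (PKR; 0.48, adjusted p = 0.0388), both interferon-induced, were also gained, against 0.0767 and 0.193 with GFP 1. The clock repressor Bhlhe40 was at 22.9 CPM in GFP 1, below every other liver, and was called without it (0.54, adjusted p = 0.044; 0.102 with it). The nucleotide receptor P2ry2 was at 3.66 CPM in GFP 1 and was gained likewise (0.53, adjusted p = 0.0239; 0.117 with it), and the mitotic kinase Nek2 was at 17.1 CPM there and was gained as a fall (-1.01, adjusted p = 0.0343; 0.0689 with it).

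What set GFP 1 apart was itself patterned. Of the 159 genes more than 2-fold above every other liver 36 are in the mitosis list, and of the 46 more than 2-fold below 7 are clock genes, namely Per1, Per2, Per3, Dbp, Tef, Nr1d1 and Ciart. Dbp was at 1.13 CPM in GFP 1 and at no less than 6.23 CPM in any other liver, and Hsd3b5 at 3.03 CPM against at least 11.9 CPM elsewhere. Thrsp was at 16.2 CPM and Srebf1 at 71.2 CPM in that liver, and both were lower there than in the other 9. The female-biased Cyp3a41a stood at 33.7 CPM in GFP 1, the highest of the 10. The part of these differences in each result above was not tested beyond the fits without GFP 1.

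The knockdown experiment of the same series used other mice: 5 livers with a hairpin against Pklr (shPKLR) and 5 with a luciferase hairpin (shLUC), with the same ages and diet. Of the called genes other than Pklr, 309 were also tested there, and 248 (80.3%, Wilson 95% interval 75.5 to 84.3) had a log2 fold change of the opposite sign, beside 63.3% of all 15444 genes tested in both. The share was 81.3% for genes that rose with PKLR, beside 60.4% of all genes with higher means. It was 78.7% for those that fell, beside 66.4% of all genes with lower means, and 79.8% for genes called only with GFP 1 in the fit. Genes are not independent of each other, so the interval describes counting only. Values for named genes were -1.44 for Acly, -1.78 for Fasn, -2.59 for Pnpla3, -1.81 for Mvd and -1.10 for Acaca, all opposite to the overexpression. They were 1.77 for Noct, 1.82 for Mthfd1l, 1.57 for Hsd17b6, 2.52 for Asns and 1.61 for Tuba8, again opposite. Some other genes that kept their call whichever liver was left out had smaller knockdown values, though also of the opposite sign. They were 0.07 (SE 0.29) for Cdc42ep5, 0.10 (SE 0.40) for Igfbp1, 0.14 (SE 0.53) for Rpph1 and -0.14 (SE 0.36) for Cyp2c37. Each of these 4 values was smaller in size than its SE. Rn7sk (-0.12, SE 0.41) and Rn7s1 (-0.49, SE 0.37) also kept their call whichever liver was left out, but had the same sign as with PKLR. Of the genes called in all 10 such fits, 70 of 86 tested in the knockdown had the opposite sign. By list, knockdown medians were -1.10 for fatty acid synthesis and -1.03 for cholesterol synthesis, opposite to the overexpression, while the type I interferon list had 0.46, the same sign as with PKLR, and mitosis 0.03. The type I interferon genes named with values went both ways: Oasl1 (-0.29), Ifih1 (-0.13) and Parp12 (-0.14) had the opposite sign. Adar (0.15) and Eif2ak2 (0.16), gained without GFP 1, had the same sign, as had Tap1 (0.06) of the neighbouring list. Of the genes tested in both experiments Pklr alone passed edgeR's threshold in the knockdown. An unadjusted p under 0.05 was found there for 108 called genes, a count that includes Pklr, whereas the 309 leave it out. Over all genes the count was 2297 with Pklr, beside 15444 tested without it. The 108 were 84 genes that rose with PKLR (Pklr among them, beside 187 tested without it) and 24 of 122 that fell. Among all genes with higher means the count was 1112 (Pklr among them, beside 8009 tested without it). Among all genes with lower means it was 1185 of 7435.

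**Figure D5:**
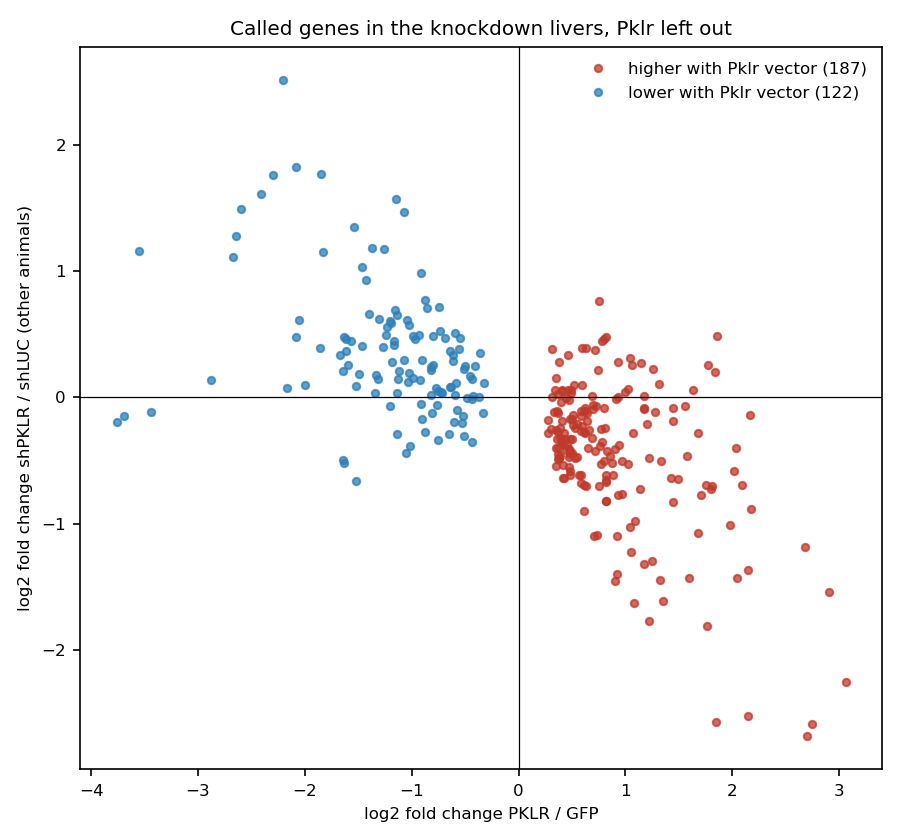
Log2 fold change with the Pklr vector (horizontal axis, PKLR over GFP) against that with the Pklr hairpin in other animals (vertical axis, shPKLR over shLUC) for the 309 called genes tested in both, Pklr left out. Of these, 248 lie in the quadrants of opposite sign.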

How the data were processed

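RNA-seq read counts per gene of 10 livers were used as the authors deposited them, in 1 table of 26286 genes without normalisation. Per the submitters' processing notes, HISAT2, DESeq2 and the build GRCm38 (mm10) were used, and per the labels' protocols an Illumina stranded kit for total RNA was used. No source used here names the counter, the annotation release or the strand setting. Symbols came from GENCODE for 26146 of the identifiers. Genes were filtered with filterByExpr, scaled by TMM and tested with edgeR 4.0.16 (R 4.3.3; glmQLFit robust, glmQLFTest), with Benjamini-Hochberg adjustment over all genes tested. SE is the fold change divided by the root of F. A list score uses log2 CPM with a prior count of 2. The fit was tested on simulated data in which no liver was made to stand apart, so that test does not bear on GFP 1. Mice were separate animals, 5 per group, and p-values describe the spread between them.

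Named genes were Pklr and Pkm, a panel of 9 genes, the 10 largest rises and falls with a mean of at least 2 CPM in 1 group that were called in every fit leaving out 1 liver, up to 3 called members with the smallest p in each list (2 in a list without a call), and the 10 leading genes gained or lost without GFP 1. Other genes given by name were picked after their values were seen. The members and the 58 lists were chosen with earlier results of these data known. Alternatives were RLE size factors, 2 other filters, DESeq2 1.42.0, limma 3.58.1 voom with sample weights, a replicate block and each liver left out. Promoters are from RefSeq (GRCm38.p6). Samples of the knockdown table were used in 1 comparison, with the same fit within that table. Some genes of the lists are counted but not reported here by name.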

Additional observations from a re-analysis of the deposited data

Results flagged for a closer look

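In each group of 5 livers the highest and the lowest liver were compared with the nearest of the others by Dixon's criterion. Chance marks about 1 in 20 groups. Here 6 of 110 list scores and 24 of 276 gene levels were marked, 2 and 10 of them in GFP 1. The gene count cannot be set against that rate, since some genes were named because leaving out GFP 1 changed their call. Among the genes marked in GFP 1 these are Bhlhe40, Ccnb2, Nek2, Orm2, P2ry2 and Stmn1. What lies behind these gaps was not tested.

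Among list scores, GFP 1 stood low for the fructose and ChREBP list (-0.422) and for the clock list (-0.737). GFP 2 stood low for conjugation and NRF2 targets (-0.144). PKLR 2 stood low for the amino acid stress list (-0.746), PKLR 4 low for interferon gamma and MHC class I (-0.074), and PKLR 1 high for mitosis (-0.907).

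Among genes, GFP 1 stood high for Acot1 (107.3 CPM), the chemokine Ccl9 (64.2 CPM), Ccnb2 (11.1 CPM), Nek2 (17.14 CPM), Stmn1 (30.14 CPM), Orm2 (52.29 CPM), the lectin Mbl2 (495.4 CPM) and the ribosomal gene Rpl24 (3.057 CPM). It stood low for Bhlhe40 (22.85 CPM) and P2ry2 (3.659 CPM). GFP 2 stood high for Asns (10.03 CPM) and low for Mttp (197.7 CPM), which loads lipid onto lipoproteins. GFP 5 stood high for Cadm4 (3.405 CPM) and Rarres1 (29.0 CPM).

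In the PKLR livers, PKLR 4 was low for Pklr itself (389.1 CPM). PKLR 1 was high for Acot1 (25.84 CPM), Ccnb2 (0.9694 CPM), Gpnmb (1.99 CPM) and the histone gene Hist1h4i (2.194 CPM). PKLR 2 was high for Mlxipl (506.9 CPM). PKLR 3 was high for Acly (839.9 CPM) and for Id1 (12.33 CPM), an inhibitor of helix-loop-helix factors. PKLR 5 was low for Acacb (95.92 CPM) and high for Ccl9 (30.31 CPM).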

How the results depend on the processing

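The number of genes called in PKLR against GFP livers, 322, became 1107 with DESeq2, of which 533 were higher and 574 lower. With limma-voom they were 382, with RLE size factors 279, without a filter 320 and with the stricter filter (more than 1 CPM in 5 or more livers) 258. The count of genes shared between the fits with and without GFP 1 rose from 161 to 685 with DESeq2. Leaving out 1 liver gave 128 to 469 calls, with 64 to 199 genes called higher in PKLR livers and 64 to 270 genes called lower in PKLR livers; leaving out GFP 1 and PKLR 1 together, chosen after seeing the data, gave 120, with 51 higher and 69 lower. There was 1 value for called genes in the knockdown livers: percent with the opposite sign, which was 80.3% and became 74.6% with DESeq2, 73.1% to 86.3% when 1 liver was left out, 73.6% without both, and 69.1% with the block. With limma-voom the fructose and ChREBP list median was 0.168. The cause of these differences was not tested. No called gene among those named changed sign. Medians of some lists near 0 did, among them the urea cycle (0.008, and as low as -0.11), Kupffer cells (-0.018, and as high as 0.09), triglyceride, glycolysis and endothelial lists, as did the uncalled genes Scd1, Cfd, Csf3r and Mylpf. Of 138 named genes, RLE ended the call of 7, limma-voom of 11, no filter of 20 and the stricter filter of 4, while DESeq2 ended none and added 22. The count for the stricter filter leaves out the named genes too rare to pass it, among them the called gene Wnt9b. A replicate block gave 544 calls, 264 higher and 280 lower, but no label says that the numbers pair livers. Same-numbered livers had deviations correlated between -0.11 and 0.26 over 5 pairs. Of the GFP livers 1 of 5, and of the PKLR livers 2 of 5, correlated best with their own number. So few pairs cannot show whether the numbers pair livers. Depth limits what can be said of rare transcripts, such as those under 1 CPM in a group.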
